A study of Mus musculus with 8 samples.

Results

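XPR1, SLC20A1 and SLC20A2 encode the phosphate exporter of mammalian cells and the pair of sodium-dependent phosphate importers that most mammalian cell types use. Their rows were taken by symbol from the table of counts per gene, 1 row for each name, so they make up 3 of its 33514 rows. The trio was selected on the difference between siHoxa5 and siN libraries in these same data, so the values of that contrast are given for the 3 genes as a description and without a test. XPR1 and SLC20A1 were lower in the siHoxa5 libraries by about the same proportion, to 64.5% of the siN mean for XPR1 and 65.2% for SLC20A1, while SLC20A2 had no count in any library.

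The RNA came from adult cardiomyocytes isolated from C57BL/6 mice and kept in culture. The 4 siHoxa5 libraries were from cells transfected with an siRNA against Hoxa5, a homeobox transcription factor, and the 4 siN libraries from cells given a negative control siRNA. Both groups received phenylephrine, which activates alpha1-adrenergic receptors and makes cardiomyocytes grow, at 100 µM for 24 h, starting 24 h after transfection. No cells without phenylephrine are compared here, and nothing in the labels ties the libraries of a group to different hearts or dishes, so the spread between libraries may be technical.

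Inorganic phosphate is needed for ATP, phosphocreatine, nucleic acids and membrane lipids, and its level inside a cell is set by uptake and release across the plasma membrane. SLC20A1 (PiT1) and SLC20A2 (PiT2) bring phosphate in together with sodium, and XPR1 carries it out. XPR1 holds a cytosolic SPX domain that binds inositol pyrophosphates, small molecules that report the phosphate and energy state of the cell. All 3 proteins were first found as cell surface receptors for gammaretroviruses, and loss of XPR1 or SLC20A2 causes primary familial brain calcification in people.

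In the mouse genome (GRCm38, GENCODE M21) Xpr1 lies on the minus strand of chromosome 1 from 155275701 to 155417415 (ENSMUSG00000026469.14, 15 exons in its principal transcript), Slc20a1 on the plus strand of chromosome 2 from 129198764 to 129211616 (ENSMUSG00000027397.14, 11 exons) and Slc20a2 on the plus strand of chromosome 8 from 22476788 to 22569612 (ENSMUSG00000037656.9, 11 exons). The RefSeq sequences upstream of Xpr1 and of the first start of Slc20a1 (GRCm38.p6) are shown because these are the members with counts, and both were lower in siHoxa5 libraries. Each window runs from base -250 to base -11 before the annotated start, and capitals mark TAAT, the core that homeodomain proteins bind, read on both strands (TAAT or ATTA), and the E-box CACGTG.
Xpr1, chr1:155417455-155417694, minus strand: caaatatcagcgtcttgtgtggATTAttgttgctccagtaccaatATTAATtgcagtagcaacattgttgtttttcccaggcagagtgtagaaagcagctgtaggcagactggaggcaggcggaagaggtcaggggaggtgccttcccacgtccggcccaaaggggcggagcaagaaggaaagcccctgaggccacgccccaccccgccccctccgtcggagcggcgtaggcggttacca
Slc20a1, chr2:129198523-129198762, plus strand: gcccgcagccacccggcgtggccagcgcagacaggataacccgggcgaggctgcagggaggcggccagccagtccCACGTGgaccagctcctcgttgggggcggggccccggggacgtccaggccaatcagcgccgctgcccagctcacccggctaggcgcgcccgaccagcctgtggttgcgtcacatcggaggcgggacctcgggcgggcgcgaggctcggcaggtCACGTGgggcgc
The Xpr1 window held 3 matches to TAAT, of which the last 2 overlap, and no CACGTG, whereas the Slc20a1 window held no TAAT and 2 matches to CACGTG. Of 32851 RefSeq windows of the same length, 54.2% held TAAT and 5.69% held CACGTG. These shares count windows with at least 1 match and were not matched for GC content. The 2 CACGTG of the Slc20a1 window are therefore not read as unusual. The GC box GGGCGG, searched on both strands as GGGCGG or CCGCCC and not capitalized, occurred 2 times in each of the 2 windows and in 31.3% of all windows. GC content was 57.5% for Xpr1 and 75.8% for Slc20a1, against a median of 52.1% over all windows. A second annotated start of Slc20a1, inside the gene, had 1 TAAT, no CACGTG and 1 GC box in its window. These matches describe the letters in these windows and do not show binding.

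The siHoxa5 libraries held 560190 to 619942 counts and the siN libraries 635825 to 658192. HOXA5 itself had 1, 3, 4 and 1 counts in siHoxa5 libraries 1 to 4 and 2, 0, 3 and 3 counts in siN libraries 1 to 4, so the depth does not show whether the siRNA lowered its target. Of 14 cardiomyocyte markers 10 had counts, and the list made up 6.80% to 7.01% of all counts in siHoxa5 libraries and 5.39% to 5.73% in siN libraries. MYH6 and MYH7 held most of it. MYH6 had 16922 to 18024 counts in siHoxa5 and 13435 to 14766 in siN libraries, and MYH7 16300 to 18093 in siHoxa5 and 15720 to 16393 in siN libraries. TNNI3, MYL2, MYL3 and PLN, which adult mouse ventricle expresses abundantly, were at 0 throughout. The fibroblast list (8 of 10 with counts, LUM and TCF21 at 0) made up 1.08% to 1.27% in siHoxa5 and 1.02% to 1.09% in siN libraries, with COL1A1 and COL1A2 holding most of it. COL3A1, PDGFRA, DCN and POSTN had at most 5 counts in any library. Markers of endothelial cells (3 of 10 with counts), smooth muscle and pericytes (5 of 10) and leukocytes (3 of 10) each stayed at or under 0.00341% of the counts of any library, with PECAM1, CDH5, PDGFRB, CD68 and ADGRE1 at 0. Of the 10 tested cardiomyocyte markers 5 rose (MYH6, MYH7, ACTN2, TTN and ATP2A2) and 1, TNNT2, fell. Of 4 tested fibroblast markers COL1A1 rose, where 3.74% of all tested rows rose and 3.38% fell. What part these shifts have in the values below was not tested. In bulk RNA fewer cells of a type and less RNA per cell cannot be told apart.

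XPR1 had 314, 242, 259 and 241 counts in siHoxa5 libraries 1 to 4, against 491, 446, 457 and 410 counts in siN libraries 1 to 4. Scaled to CPM (counts relative to TMM-scaled library size), that was 513, 441, 422 and 438 CPM in siHoxa5 libraries and 755, 708, 719 and 628 CPM in siN libraries. The groups did not overlap, and the highest siHoxa5 library, number 1, was still below the lowest siN library, number 4. XPR1 averaged 454 ± 40.3 CPM in siHoxa5 and 703 ± 53.6 CPM in siN (SD, n = 4 each). On the log2 scale its fold change was -0.63 (SE 0.08). XPR1 was well measured: it ranked number 333 of 3020 tested rows by mean CPM, and its coefficient of variation between libraries was 8.88% in siHoxa5 and 7.63% in siN, where counting error alone gives 6.15% and 4.71%.

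SLC20A1, the importer that had counts, had 109, 80, 85 and 79 counts in siHoxa5 libraries 1 to 4, against 183, 126, 151 and 137 counts in siN libraries 1 to 4. In CPM these were 178, 146, 139 and 144 in siHoxa5 libraries and 281, 200.02, 238 and 209.9 in siN libraries. Again the groups did not overlap, with a narrow gap between siHoxa5 library 1 and siN library 2. SLC20A1 averaged 151 ± 17.9 CPM in siHoxa5 and 232 ± 36.5 CPM in siN (SD, n = 4 each). On the log2 scale its fold change was -0.61 (SE 0.12). With fewer counts than XPR1 it varied more: its coefficient of variation was 11.8% in siHoxa5 and 15.7% in siN libraries, where counting error alone gives 10.6% and 8.19%. The highest siN library was number 1, and without it the log2 fold change was -0.51. It ranked number 947 of the 3020 rows by mean CPM.

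**Figure D1:**
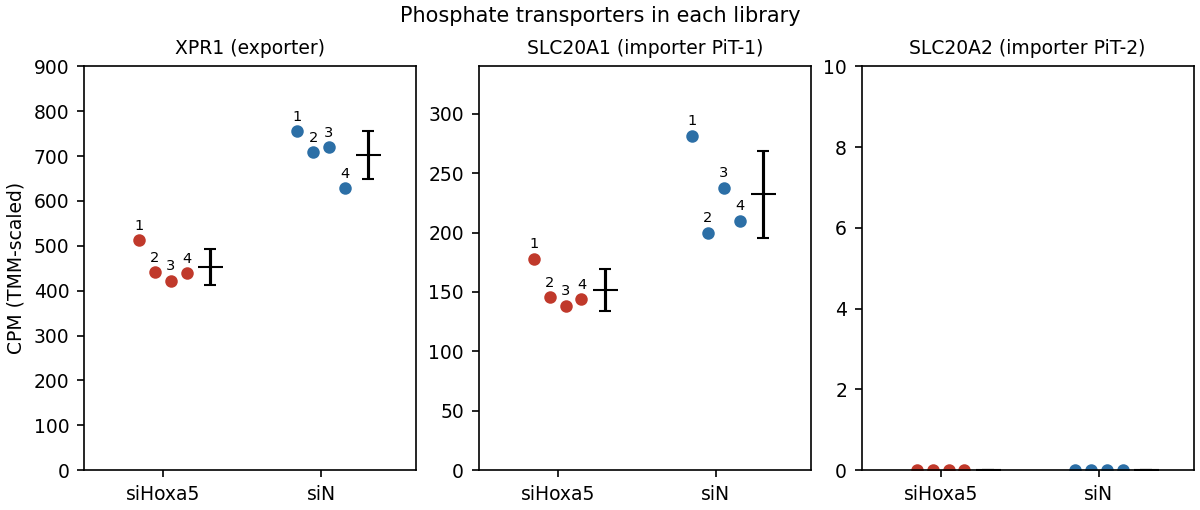
CPM (TMM-scaled, linear axes from 0) of XPR1, SLC20A1 and SLC20A2 in each library; numbers are the libraries of each group, and bars show the mean ± SD of 4. XPR1 lies between 422 and 513 CPM in siHoxa5 and between 628 and 755 CPM in siN libraries, SLC20A1 between 139 and 178 CPM in siHoxa5 and between 200.02 and 281 CPM in siN libraries, and SLC20A2 is at 0 in all 8.

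Over all 3020 tested rows, edgeR at an adjusted p under 0.05 called 7.12% in either direction and 3.38% lower in siHoxa5, and in 5.76% all siHoxa5 libraries lay below all siN libraries. XPR1 and SLC20A1 belong to such rows by the way they were chosen, so nothing is read from their place there. By size of decrease they stood at positions 61 and 65 of the 3020 rows. The median log2 fold change of all tested rows was -0.00.

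SLC20A2 had 0 counts in all 8 libraries. A count of 0 allows up to 3 counts, that is 4.89 to 5.46 CPM in a siHoxa5 library and 4.60 to 4.76 CPM in a siN library, limits that cover counting error only. No fold change can be given for it. The zero is a statement about this row of the table and not about the cell: 7926 of 33514 rows had a count at all, 33083 symbols are spelled without lower-case letters, as in human, although the cells are mouse, and the sources used here do not state how mouse reads were assigned to these rows.

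The proportion of exporter to importer counts was similar in both groups. The ratio of XPR1 counts to SLC20A1 counts within a library was 2.88, 3.03, 3.05 and 3.05 in siHoxa5 libraries 1 to 4, and 2.68, 3.54, 3.03 and 2.99 in siN libraries 1 to 4. Its mean was 3.00 ± 0.08 in siHoxa5 and 3.06 ± 0.355 in siN (SD, n = 4 each). The group means thus differ by less than the spread between siN libraries. The SD of 0.08 is smaller than the counting error of SLC20A1 alone gives (10.6% in siHoxa5), so it is not read as a tightly held ratio. Both genes were chosen on this contrast, so the similar ratio is a description. In CPM, library 1 was the highest of its group for both genes in siHoxa5 and in siN. Library 3 had the lowest CPM for both genes in siHoxa5, where library 4 had the lowest counts (241 for XPR1 and 79 for SLC20A1). In siN, library 4 was lowest for XPR1 and library 2 for SLC20A1.

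**Figure D2:**
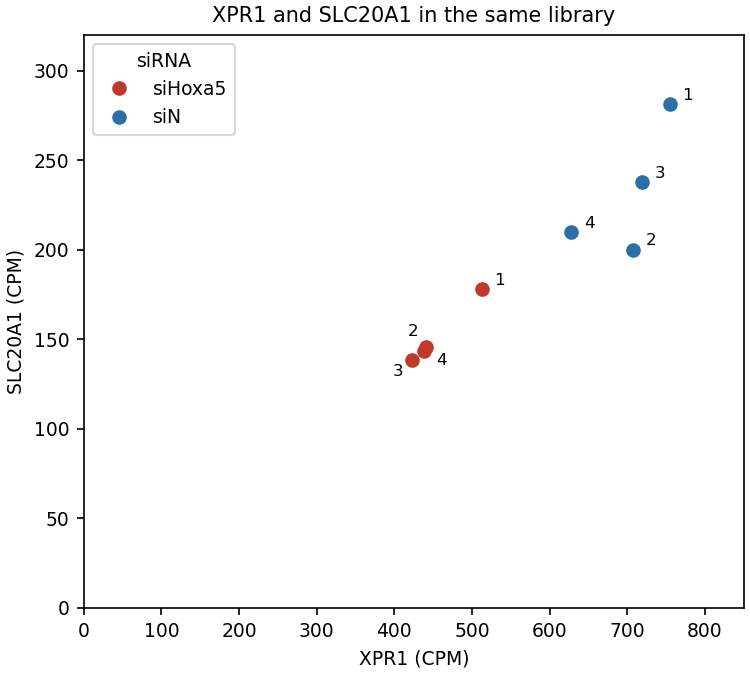
SLC20A1 against XPR1 in the same library, both in CPM on linear axes from 0, with siHoxa5 libraries in red and siN libraries in blue and numbers naming the library. The siHoxa5 libraries lie at 422 to 513 CPM of XPR1 and 139 to 178 CPM of SLC20A1, below and left of all siN libraries.

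Which of these transcripts was more abundant depends on the length used. Per kb of the principal transcript (7.492 kb for Xpr1 and 3.316 kb for Slc20a1 in GENCODE M21), the level of XPR1 was 60.5 ± 5.38 CPM per kb in siHoxa5 and 93.8 ± 7.16 in siN, and that of SLC20A1 45.7 ± 5.40 in siHoxa5 and 70.0 ± 11.0 in siN (SD, n = 4). Per kb of all annotated exons joined (17.88 and 5.58 kb), the levels were 25.4 ± 2.25 in siHoxa5 and 39.3 ± 3.00 in siN for XPR1, and 27.1 ± 3.21 in siHoxa5 and 41.6 ± 6.54 in siN for SLC20A1. On that scale the ranges of the 2 genes overlapped within each group, and SLC20A1 had the higher mean. SLC20A2 was listed at 0. The gene models behind the deposited counts are not known, so the order of XPR1 and SLC20A1 was not resolved.

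Few genes beside the members could be measured, and none of those passed the test. Of 7 protein-coding genes that start within 500 kb of Xpr1, 1 passed the filter, the syntaxin STX6, at 23.6 ± 4.08 CPM in siHoxa5 and 20.3 ± 4.74 CPM in siN libraries (log2 fold change 0.22, SE 0.33, edgeR adjusted p = 0.773). Of 15 around Slc20a1, 1 passed the filter, ZC3H6, with a log2 fold change of 0.22 (SE 0.33, adjusted p = 0.774). Around Slc20a2, which had no counts, 2 of 19 passed the filter: VDAC3, a voltage-dependent anion channel of the outer mitochondrial membrane (196 ± 21.8 CPM in siHoxa5, 189 ± 10.04 CPM in siN), and KAT6A, a histone acetyltransferase (234 ± 27.1 CPM in siHoxa5, 228 ± 18.6 CPM in siN). With VDAC3 at 0.06 and KAT6A at 0.04 on the log2 scale, none of these 4 neighbours passed the test. Over all tested rows 7.12% were called in either direction, so little is read from 4 rows. At the standard errors of STX6 and ZC3H6, a change as large as that of XPR1 would not have been resolved. Slc20a1 is overlapped by 2 annotated transcripts of the opposite strand, Gm4430 at its 5′ end and 9830144P21Rik, and the library kit does not mark strand, so reads from these cannot be told apart from its own. Slc20a2 and Smim19 overlap at their 5′ ends, and a microRNA gene, Gm22569, lies opposite within Xpr1.

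The other genes of phosphate handling were read from 7 lists with 71 genes, all of which have a row in the table. Of these, 33 had a count and 10 passed the filter. In this group of 10, SLC25A3 and STC1 rose and the remaining 8 did not pass the test, so 0 fell. Of all tested rows, 3.74% rose and 3.38% fell. The median log2 fold change of the 10 was 0.01, against -0.00 over the 3020 tested rows.

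The genes that rose were a mitochondrial phosphate carrier and a phosphate-regulating hormone. SLC25A3, which brings phosphate from the cytosol into the mitochondrial matrix for ATP synthesis, had 3561, 4244, 3600.2 and 3618 CPM in siHoxa5 libraries 1 to 4, against 2982, 2943, 2972 and 2924 CPM in siN libraries 1 to 4. All siHoxa5 libraries were above all siN libraries, with library 2 far above the other siHoxa5 libraries. The means were 3756 ± 327 CPM in siHoxa5 and 2955 ± 26.5 CPM in siN, and the log2 difference of 0.35 passed the test (SE 0.05, edgeR adjusted p = 2.34e-08). Without siHoxa5 library 2 it was 0.28. STC1, stanniocalcin 1, named after the calcium- and phosphate-regulating hormone of bony fish, was at 243, 275, 258 and 216 CPM in siHoxa5 libraries and 103, 100.01, 99.2 and 106 CPM in siN libraries (log2 fold change 1.28, SE 0.13). All siHoxa5 libraries of STC1 lay above all its siN libraries (edgeR adjusted p = 4.70e-16). The share of all tested rows separated in this direction was not taken. The lists were chosen with earlier results of these data known, so these calls are not independent support.

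Among the enzymes that make or break down the inositol pyrophosphates read by the SPX domain of XPR1, and their precursors, 2 of 13 passed the filter and neither passed the test. PPIP5K1, like IP6K1 a kinase that makes inositol pyrophosphates, was at 99.8 ± 10.5 CPM in siHoxa5 and 108 ± 10.05 CPM in siN (log2 fold change -0.11, SE 0.16, adjusted p = 0.754). IP6K1, an inositol hexakisphosphate kinase, was at 19.2 CPM in siHoxa5 and 20.2 CPM in siN (-0.07, SE 0.35, adjusted p = 0.946), and without siHoxa5 library 2 the log2 fold change was 0.19. ITPK1, IPPK, IP6K2, PPIP5K2, NUDT3 and NUDT4 had 16, 9, 60, 54, 2 and 15 counts over all 8 libraries and were not tested, and the other 5 were at 0. At the standard error of IP6K1, a change as large as that of XPR1 would not have been resolved.

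KIDINS220, a membrane scaffold that binds XPR1 and supports its phosphate export in human cells, had 27.6 CPM in siHoxa5 and 34.6 CPM in siN (log2 fold change -0.31, SE 0.32, adjusted p = 0.655). Its value rested on single libraries, with -0.75 without siHoxa5 library 3 and -0.01 without siN library 1, and it passed the test in neither case. NAA60, an acetyltransferase of the Golgi that, like XPR1 and SLC20A2, is a gene of familial brain calcification, was at 26.1, 27.3, 35.9 and 30.9 CPM in siHoxa5 libraries 1 to 4, against 40.0, 36.5, 55.1 and 49.02 CPM in siN libraries 1 to 4. Its siHoxa5 libraries all lay below its siN libraries, as in 5.76% of all tested rows. Its log2 fold change of -0.58 (SE 0.25) did not pass the test (adjusted p = 0.159). Of the other genes in this list, PDGFB had 10 counts in all and PDGFRB, MYORG, JAM2 and CMPK2 had 0.

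Of 16 genes of phosphate hormones and their receptors, 3 passed the filter. Besides STC1 these were FGFR1, a receptor for the phosphaturic hormone FGF23, at 43.2 CPM in siHoxa5 and 39.6 CPM in siN (log2 fold change 0.12, SE 0.24, adjusted p = 0.853), and FGFR2, at 137 CPM in siHoxa5 and 120.02 CPM in siN (0.19, SE 0.14, adjusted p = 0.516). FAM20C, the Golgi kinase that phosphorylates FGF23 and other secreted proteins, had 66 counts in all and did not pass the filter. It was at 7.77 ± 1.11 CPM in siHoxa5 and 18.7 ± 6.13 CPM in siN libraries, with no overlap. Of all tested rows, 5.76% had all siHoxa5 libraries below all siN libraries, a share not taken for rows under the filter. With no filter on low counts, FAM20C was among 33 listed genes tested, of which 0 were called lower in siHoxa5. PTH1R, the parathyroid hormone receptor, had 49 counts, GALNT3 27, FGFR3 13, STC2 and PHEX 3 each, and FGFR4 and VDR 1 each. FGF23 itself, its coreceptor KL, PTH, DMP1 and CASR had none.

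Of 10 genes of pyrophosphate and mineralization, ANKH and RUNX2 passed the filter. ANKH, which releases ATP and citrate and so supplies extracellular pyrophosphate, an inhibitor of mineralization, was at 88.5 CPM in siHoxa5 and 82.8 CPM in siN (log2 fold change 0.09, SE 0.17, adjusted p = 0.837). RUNX2, the transcription factor of bone formation, was at 63.7, 67.4, 70.1 and 58.2 CPM in siHoxa5 libraries 1 to 4 and at 89.2, 122, 69.3 and 90.4 CPM in siN libraries 1 to 4. The groups overlapped through siN library 3, and the log2 fold change of -0.51 (SE 0.18) did not pass (adjusted p = 0.0607); without siN library 3 it was -0.63 and passed (adjusted p = 0.0309), and without siN library 2 it was -0.35 (adjusted p = 0.345). PHOSPHO1, ENPP1 and NT5E had 9, 4 and 3 counts, and ALPL, ABCC6, MGP, SPP1 and AHSG had 0.

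The plasma membrane carriers of the SLC34 and SLC17 families that were listed had 0 counts in all 7 rows. Of the organelle carriers besides SLC25A3, the ATP-Mg/phosphate carriers SLC25A23 and SLC25A25 had 3 and 15 counts, the sugar-phosphate exchanger family members SLC37A2 and SLC37A3 had 5 and 6, and the other 5 had 0. Among 8 other carriers that serve as receptors for retroviruses, SLC7A1 had 2 counts and the rest none.

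**Figure D3:**
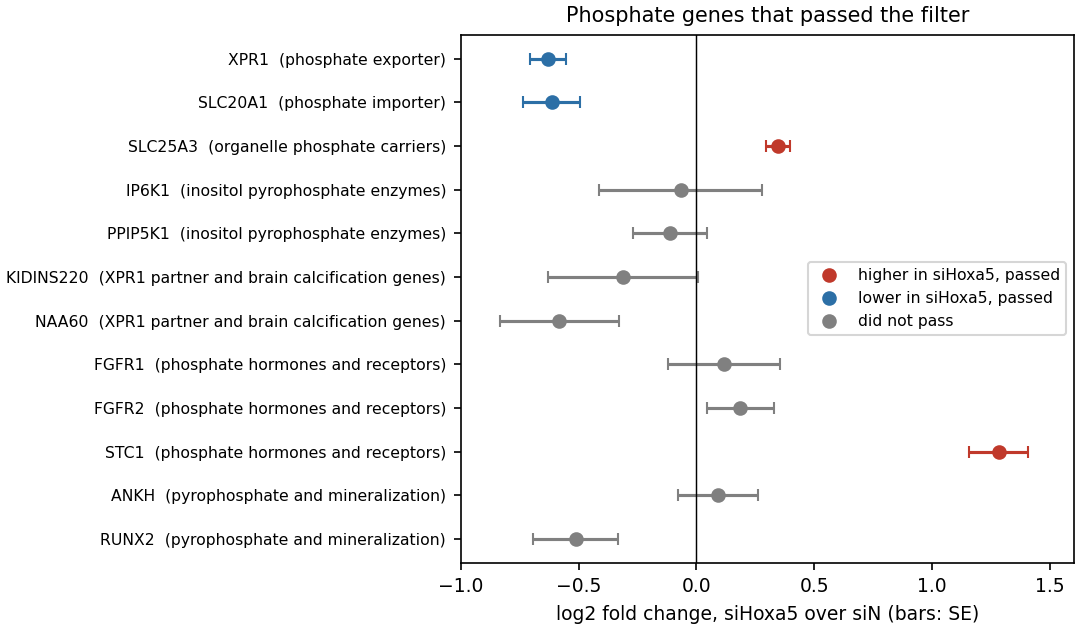
Log2 fold change (siHoxa5 over siN, points) with its SE (bars) for XPR1, SLC20A1 and the 10 genes of the phosphate lists that passed the filter. XPR1 and SLC20A1 lie at -0.63 and -0.61, SLC25A3 at 0.35 and STC1 at 1.28, while the other 8 did not pass the test.

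Among the tested rows whose symbol begins with SLC, SLC20A1, itself chosen for its decrease, had the lowest fold change. Of 334 rows with an SLC symbol, 104 had counts and 31 were tested; without the phosphate importer, 3 of 30 tested SLC rows rose and 0 fell, where 3.74% of all tested rows rose and 3.38% fell, with a median log2 fold change of 0.07. The next lowest was SLC4A3, an anion exchanger, with -0.41 (SE 0.28, adjusted p = 0.462). Besides SLC25A3, the risers were SLC8A1, the sodium-calcium exchanger (0.35, SE 0.10, adjusted p = 0.00972; 0.17 and not past the threshold without siHoxa5 libraries 2 and 4), and SLC25A4, the ADP/ATP carrier of heart mitochondria (0.18, SE 0.06, adjusted p = 0.0303). SLC8A1 also lost its call without siHoxa5 library 2 (0.28) or siN library 2 (0.29), and SLC25A4 with DESeq2, with no filter on low counts, and without siHoxa5 library 4 or siN library 1, 2 or 3. Grouping rows by the SLC name was done after the values were seen.

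**Figure D4:**
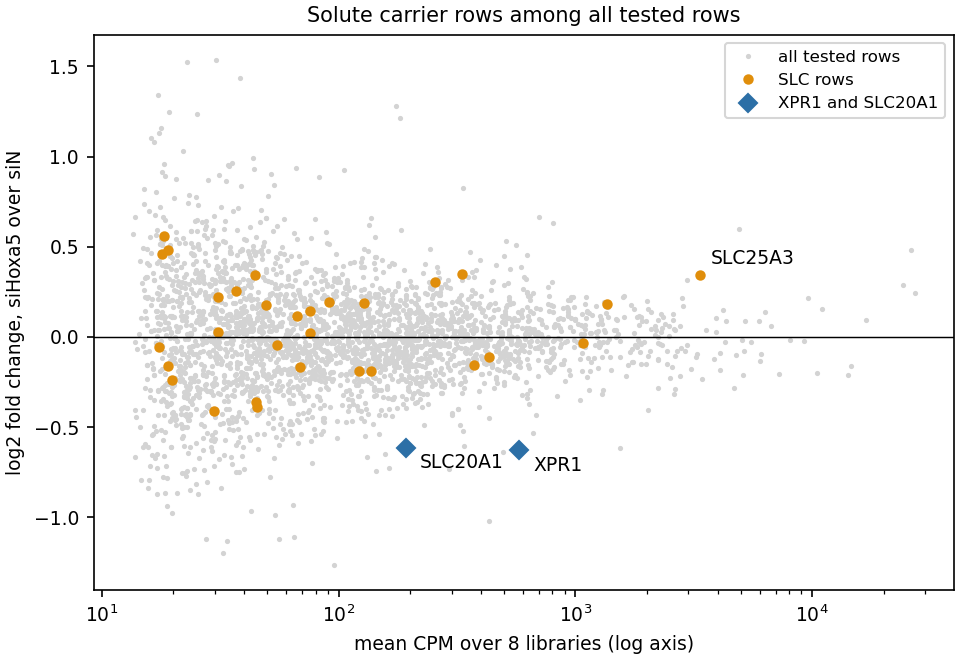
Log2 fold change (siHoxa5 over siN) against mean CPM over 8 libraries (log axis) for 3020 tested rows in grey, the other 30 tested SLC rows in orange, and XPR1 and SLC20A1 as blue diamonds. SLC20A1, at -0.61, is the lowest of the SLC rows, and SLC25A3, at 0.35, has the highest mean CPM of them.

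Rows whose profile over the 8 libraries was most like that of the members were found by the root mean square difference in log2 CPM, each row centred on its own mean, among 2787 tested rows of at least 20 CPM. For XPR1 the nearest was MSN, moesin, a linker of actin to the plasma membrane (0.09), followed by SLC20A1 (0.10), INHBA, the beta A subunit of activin and inhibin (0.11), LTBP1, a binding protein of latent TGF-beta (0.13), and HYOU1, a chaperone of the endoplasmic reticulum (0.13), where the median row differed by 0.38. For SLC20A1 the nearest was XPR1 (0.10), then MSN (0.15) and UHRF2 (0.15), and HYOU1 (0.15) was also among the nearest 5. MSN was at 1215 ± 94.6 CPM in siHoxa5 and 1865 ± 67.2 CPM in siN (log2 fold change -0.62), INHBA at 267 ± 41.0 CPM in siHoxa5 and 407 ± 43.2 CPM in siN (-0.61), and LTBP1 at 269 ± 32.6 CPM in siHoxa5 and 379 ± 16.1 CPM in siN (-0.49). HYOU1 was at -0.50 and UHRF2 at -0.38 on the log2 scale. These rows were picked for likeness to genes that were lower in siHoxa5, so their differences are not read as tests. The group difference that chose the members is part of this measure, and all rows share the libraries and their depth, so it is a description with no test.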

How the data were processed

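Poly(A) RNA of 8 libraries was sequenced on an Illumina NovaSeq, per the labels' protocols. The authors deposited estimated counts per gene symbol, not normalized, whole numbers except for 4 rows with fractional values. The submitters' processing notes name HTSeq, STAR 2.6.1b, FastQC 0.11.8, R 3.5.3 and the build mm10. The sources used here do not state the annotation, strand setting or handling of shared reads. Of 33514 symbols, 19 were spelled exactly as in GENCODE M21 and 16245 matched when case was ignored, all 3 members among them.

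Counts were rounded and tested with edgeR 4.0.16 (limma 3.58.1, R 4.3.3): TMM scaling, filterByExpr (minimum count 10, minimum total 15), robust quasi-likelihood fit with group as the only term over all 8 libraries, Benjamini-Hochberg adjustment over 3020 rows holding 98.6% of the counts, and a threshold of 0.05. The common biological coefficient of variation, as edgeR names it, was 6.10% and the median SE of a log2 fold change 0.17. The spread between libraries may be technical, so the SEs and p-values may not cover differences between cultures. Single-gene adjusted p-values are from this fit. The code was tested on simulated counts. Alternatives were RLE scaling, DESeq2 1.42.0, limma-voom, other filters, a replicate block and left-out libraries. Groups and replicate numbers come from the titles. The members and lists were chosen with earlier results of these data known. Genes were named by rule: the members, the siRNA target, listed phosphate genes with counts, the 5 rows most like each member (prior count 2; 1 of them is not reported here) and tested neighbours within 500 kb; SLC4A3, SLC8A1 and SLC25A4 were named after their values were seen.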

Additional observations from a re-analysis of the deposited data

Results flagged for a closer look

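Over 23 tested genes (XPR1, SLC20A1, the tested phosphate genes, the neighbours, the rows most like the members, SLC8A1 and SLC25A4), 46 groups of 4 libraries were checked for 1 library far from the other 3, which chance gives in about 1 of 20 groups, and 3 were marked. None concerned XPR1 or SLC20A1. For SLC25A3, siHoxa5 library 2 had 4244 CPM where the other siHoxa5 libraries had 3561 to 3618. For MSN, siN library 3 had 1766 CPM where the others had 1889 to 1913. For KAT6A, siHoxa5 library 4 had 275 CPM where the others had 216 to 224.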

How the results depend on the processing

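Over the 15 alternatives the log2 fold change ranged from -0.70 to -0.58 for XPR1 and from -0.70 to -0.51 for SLC20A1. These refit the contrast that chose the genes and are no independent support. The smallest decrease of SLC20A1 came without siN library 1, and that of XPR1 without siHoxa5 libraries 2 and 4, where SLC20A1 had -0.55. The count of called rows was 215, and it was 120 with DESeq2, all of them among the 215, and 143 without siHoxa5 libraries 2 and 4, of which 118 were. Leaving out 1 library at a time gave 145 to 260. The 2 called phosphate genes, SLC25A3 and STC1, were called under every alternative, and the count was 2 or 3. Deviations of same-numbered libraries of the groups had correlations of -0.02 to 0.07. Of 4 siHoxa5 libraries, 2 correlated best with their own number. No pairing by number was seen, but counting error can hide a shared deviation, so this check cannot exclude shared hearts or dishes. With a replicate block 250 rows were called, XPR1 had -0.63, SLC20A1 -0.62 and 2 phosphate genes were called. The cause was not tested. SLC20A2 and 61 of the 71 listed phosphate genes did not pass the filter on low counts, and for those at 0, depth and the unknown assignment of reads to rows cannot be told apart.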
